A study of Mus musculus with 27 samples.

Results

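The nuclear genes that encode the enzymes of oxidative phosphorylation were followed across mouse mK4 cells, an established line of kidney metanephric mesenchyme, in 3 genotypes. Members were taken by name alone, as every gene symbol in the RNA-seq table that begins with Nduf, Uqcr, Cox4, Cox5, Cox6, Cox7, Cox8 or Atp5, or with Sdh and one of the letters a to d. This gave 98 of the 24953 genes listed. The control libraries came from parental mK4 cells (genotype WT), the Runx1KO libraries from cells in which CRISPR-Cas9 removed exon 3 of Runx1, and the ZebDKO libraries from cells in which it removed the start codon exons of both Zeb1 and Zeb2. Each genotype had 3 RNA-seq libraries of polyadenylated RNA from cells grown in 10% serum to near confluence. The knockouts were selected as clones of 1 line, and the number of clones that went into the libraries is not given in the sources used here, so a clone and its genotype cannot be told apart. Peak lists of Runx1 and Runx2 ChIP-seq and of ATAC-seq from control and Runx1KO cells were used for the promoters.

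Oxidative phosphorylation is the last step of respiration in the inner mitochondrial membrane. Complex I takes electrons from NADH and complex II takes them from succinate. Both pass them through ubiquinone to complex III and, by way of cytochrome c, to complex IV, which hands them to oxygen. Complexes I, III and IV pump protons, and complex V, the ATP synthase, lets the protons return and makes ATP. The subunits of complex II are all nuclear, while the other complexes also hold subunits encoded in mitochondrial DNA, which are no members here. In the kidney the pathway is best known from the tubules, where it powers the transport of salt.

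Levels are given as TPM, a value scaled for transcript length and library total. Each library listed 12541 to 12697 genes at 1 TPM or more, and libraries of 1 genotype correlated at a Pearson's r between 0.9941 and 0.9955 across 13374 genes. Runx1 itself had 18.7, 15.6 and 17.9 TPM in control, 30.3, 30.1 and 28.5 in Runx1KO and 9.4, 10.5 and 10.4 in ZebDKO libraries, and Zeb1 had 15.1, 14.2 and 15.6, 0.1, 0.2 and 0.2 and 16.8, 16.6 and 14.8 TPM. A level summed over a whole gene does not check the loss of 1 exon, so these values say nothing of the Runx1 deletion in Runx1KO cells or the Zeb1 deletion in ZebDKO cells. Zeb2 had 5.5, 4.9 and 5.2 TPM in control and 1.7, 1.8 and 1.6 TPM in ZebDKO libraries. The 7 markers of simple epithelium summed to 2.8 to 5 TPM in control, 2660 to 2741 TPM in Runx1KO and 1150.1 to 1209 TPM in ZebDKO libraries, with Krt8 the main part and Cdh1 at or under 0.6 TPM throughout. Of 9 markers of metanephric mesenchyme, Hoxd11 was at 0 in all libraries and Six2 and Wt1 reached at most 0.2 and 0.3 TPM, while Pax2, Sall1 and Hoxa11 were present in all 3 genotypes. Of the 6 of these that were tested, 2 rose and 3 fell in each knockout, and Osr1, Gdnf and Eya1 had log2 fold changes of -5.59, -3.64 and -1.32 in Runx1KO and -1.81, 1.58 and 0.07 in ZebDKO cells, of which the last did not pass the test. Osr1 had 70.9, 64.1 and 64.3 TPM in control and 0.3, 0.5 and 0.4 in Runx1KO libraries. The 7 mesenchyme markers summed to 3075 to 3206 TPM in control, 2943 to 3005 TPM in Runx1KO and 2356 to 2391 TPM in ZebDKO libraries. Most of that sum was Vim (0.00 in Runx1KO, not called, and -0.42 in ZebDKO). Of the 5 that were tested, 3 fell in Runx1KO cells (Cdh2, Fn1 and Col3a1, with -0.91, -1.50 and -1.23; 0 rose by limma, also at an unadjusted p under 0.05), and 2 rose and 3 fell in ZebDKO cells. The 4 leukocyte, 4 endothelium and 4 striated muscle markers summed to at most 3.5, 5.8 and 2.9 TPM, with Ptprc at 0 in all 9 libraries. The part of these shifts in the results below was not tested.

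Members made up 2.20% to 2.27% of all TPM in control libraries, 2.13% to 2.14% in Runx1KO libraries and 1.98% to 2.04% in ZebDKO libraries. The 39 complex I genes summed to 6429, 6702 and 6563 TPM in control, 6057, 6032 and 6019.8 in Runx1KO and 5764, 5585 and 5666 in ZebDKO libraries. All 3 groups stood apart, in the order control, Runx1KO, ZebDKO. The 8 complex III genes summed to 2319, 2357 and 2375 TPM in control, 2185, 2176 and 2167 in Runx1KO and 2021, 1994 and 1996 in ZebDKO libraries, in the same order and again without overlap. The 18 complex IV genes summed to 5947, 6039 and 5982 TPM in control, 5519, 5605 and 5569.9 in Runx1KO and 5588, 5384 and 5418 in ZebDKO libraries, and here the ranges of the knockouts overlapped. Complex II, with 4 genes, had a far lower sum of 735, 739 and 734 TPM in control libraries and was below that in every knockout library, at 669, 647 and 652 TPM in Runx1KO and 646, 629.8 and 619.6 TPM in ZebDKO. In TPM as deposited, complex V was highest in Runx1KO libraries. Its 16 genes summed to 6156, 6479 and 6239 TPM in control, 6539.5, 6507 and 6490.2 in Runx1KO and 6119.6, 5928 and 6017 in ZebDKO libraries, so that the Runx1KO values lay above all the others. These sums carry no test. In bulk RNA a lower level in every cell and fewer cells with the transcript cannot be told apart. Scaling by the median ratio of genes in place of the total turned the ZebDKO sums of complexes IV and V, and of all members, from lower than control to higher (log2 ratios of 0.07, 0.14 and 0.05). The order of the knockouts turned as well. Complex I then had log2 ratios to control of -0.07 in Runx1KO and -0.0068 in ZebDKO cells, complex III -0.06 and -0.03, and complex V 0.10 and 0.14. The lower complex III sum of Runx1KO cells rested on its most abundant gene, Uqcrb, without which the log2 ratio was -0.00012.

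**Figure D1:**
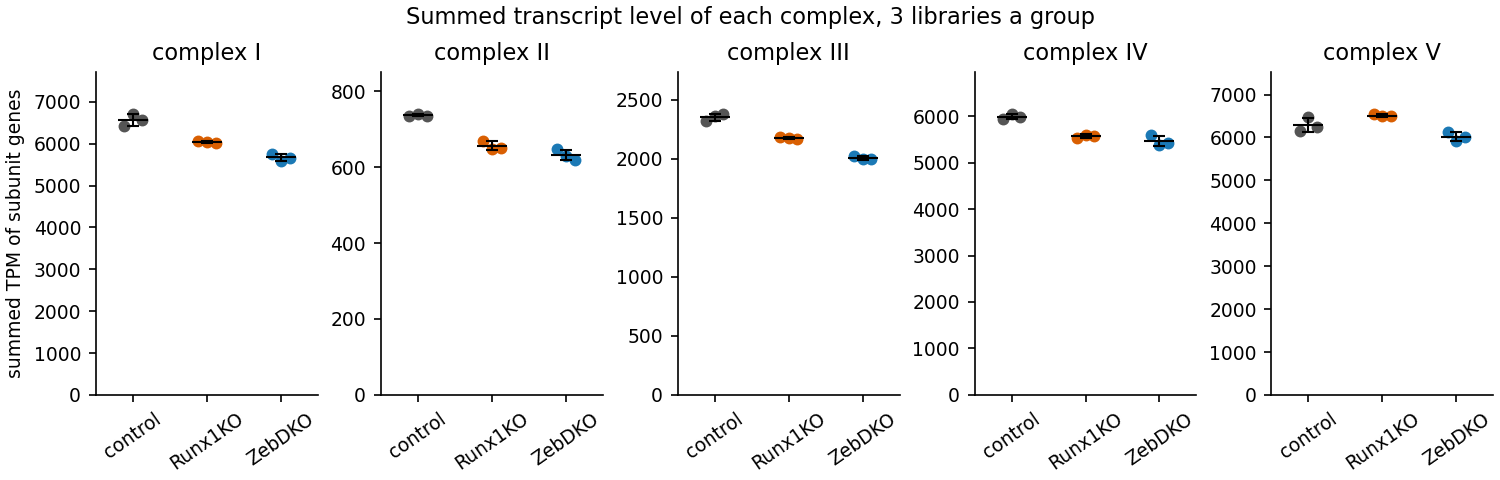
Summed TPM of the subunit genes of each complex (y axes, from 0) in the 3 control, 3 Runx1KO and 3 ZebDKO libraries (points), with the mean (long bar) and the SD (capped bars). In TPM as deposited, complexes I to IV were highest in control libraries and complex V was highest in Runx1KO libraries, at 6490 to 6540 TPM.

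The abundance of the members spanned from over 1000 TPM to 0. Atp5b, the catalytic beta subunit of ATP synthase, was the highest member in all libraries, with 1241, 1294 and 1239 TPM in control cells. Cox8a, a small subunit of complex IV, had the highest mean of its complex in control cells, with 974, 993 and 955 TPM. Cox6a1 was close to it, with 963, 974 and 982 TPM. Uqcrb, known as the ubiquinone-binding protein, led complex III with 628.4, 626 and 674 TPM, and Uqcrq was its lowest member with 116, 111 and 113 TPM. Ndufa4, named for complex I although it is now counted as a subunit of complex IV, led the Nduf genes with 509, 557 and 513 TPM. Sdhc, one of the membrane anchors of complex II, had 311, 297 and 294 TPM, and Sdhb, its iron-sulfur subunit, was the lowest subunit of that complex with 118, 125 and 121 TPM. Assembly factors were lower. Ndufaf8 was the highest of the 8 for complex I with 62, 60.6 and 61.9 TPM and Ndufaf3 the lowest with 16.4, 15.9 and 18 TPM, while the 4 for complex II ran from Sdhaf2 with 52.7, 54.6 and 49.3 TPM to Sdhaf3 with 16.8, 16.2 and 14.5 TPM. The order between genes depended on the table. A second deposited table of the control and Runx1KO libraries held 96 of the members, and 12 of the 90 at 1 TPM or more in both differed over 2-fold in mean level, among them Atp5j (76.7 against 436 TPM) and Ndufb2 (18.3 against 110.3 TPM).

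Among the tissue isoforms of complex IV, Cox4i2, Cox6b2, Cox8b and Cox8c, known from lung, testis, muscle and testis, reached at most 0.9, 0.2, 0.5 and 0 TPM in any library and did not pass the filter of 1 TPM in 3 of 6 libraries, which left 94 members tested in every comparison. Cox6a2, the muscle isoform of Cox6a, had 3.1, 3.2 and 2.3 TPM in control, 1.8, 0.1 and 0.3 in Runx1KO and 1.3, 1.8 and 2.6 in ZebDKO libraries, beside 833 to 982 TPM of the common isoform Cox6a1. It was lower in every Runx1KO library than in any control library (log2 fold change -1.28, SE 0.34, adjusted p = 0.0118), at levels where the table moves in steps of 0.1 TPM. Cox7a1, the muscle isoform of Cox7a, stayed at 0.8 to 2.8 TPM in the 9 libraries, and neither comparison with control passed the test (log2 fold change 0.37, SE 0.26, adjusted p = 0.236 in Runx1KO; log2 fold change 0.13, SE 0.30, adjusted p = 0.707 in ZebDKO). Without control replicate 1 the Runx1KO value of Cox7a1 was 0.64 and passed (adjusted p = 0.0211 by limma). The muscle markers Myh7 and Ckm were at or under 0.6 TPM throughout.

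Cox7b2, a testis isoform of Cox7b, was the one member that rose past 2-fold in ZebDKO cells. It had 9.5, 9.5 and 13.7 TPM in control, 12, 11.2 and 7.9 in Runx1KO and 23.3, 29.1 and 27.8 in ZebDKO libraries. The ZebDKO libraries lay above all the others (log2 fold change 1.23, SE 0.15, adjusted p = 0.00014 against control), whereas Runx1KO and control libraries overlapped (log2 fold change -0.07, SE 0.18, adjusted p = 0.763). The test of the knockouts against each other passed as well (log2 fold change -1.30, SE 0.15, adjusted p = 0.000124). Its part of the TPM of Cox7b and Cox7b2 together had a lowest, median and highest value of 1.39%, 1.43% and 1.93% in control, 1.37%, 1.93% and 2.06% in Runx1KO and 4.43%, 5.43% and 5.45% in ZebDKO libraries, the common Cox7b having fallen in both knockouts (log2 fold change -0.24, SE 0.03, adjusted p = 0.000178 in Runx1KO; log2 fold change -0.44, SE 0.03, adjusted p = 1.35e-05 in ZebDKO).

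Ndufa4l2, an oxygen-responsive relative of Ndufa4, went the other way. It had 4.2, 2.3 and 4 TPM in control, 1.5, 1.7 and 1.2 in Runx1KO and 0.3, 0.2 and 0.9 in ZebDKO libraries, and no 2 groups overlapped. It fell in Runx1KO cells (log2 fold change -0.84, SE 0.18, adjusted p = 0.00514) and past 2-fold in ZebDKO cells (log2 fold change -1.62, SE 0.23, adjusted p = 0.000402). In the second deposited table its mean over the 6 libraries was 0.123 TPM, against 2.48 TPM in the table used here, so its level is uncertain. Of 10 oxygen-responsive genes tested, 4 rose and 3 fell in Runx1KO cells, where 30.4% of all genes rose and 40.1% fell. In ZebDKO cells 5 rose and 3 fell, where 26.9% and 52.5% of all genes did. The largest changes were of Car9, a carbonic anhydrase, with log2 fold changes of 5.72 and 1.97, and of Ndrg1 with -1.44 and 1.70.

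The ring subunit c of ATP synthase is encoded by Atp5g1, Atp5g2 and Atp5g3, which yield the same mature protein. Atp5g2 was the highest of them, with a lowest, median and highest share of 58.6%, 59.8% and 60.5% in control, 55.8%, 56.1% and 57.5% in Runx1KO and 64.5%, 64.7% and 65.4% in ZebDKO libraries. The groups did not overlap. The size of the share depended on the table, since Atp5g2 was 58.1% of the 3 genes' mean TPM over control and Runx1KO libraries in the table used here and 41.3% in the second deposited table. Atp5g1 rose in Runx1KO cells (log2 fold change 0.19, SE 0.03, adjusted p = 0.00188) and Atp5g3 fell in ZebDKO cells (log2 fold change -0.32, SE 0.04, adjusted p = 0.000334). Cox4i1 supplied 99.83% or more of its pair in all libraries, and Cox6b1 and Cox8a supplied 99.94% or more of theirs. Cox7a2 had 338, 339.7 and 357 TPM in control cells and Cox7a2l, an assembly factor of respiratory supercomplexes, 118, 123 and 115 TPM. Cox7a2l was lower in each knockout, with 91.1, 92 and 93.6 TPM in Runx1KO and 89.2, 95.8 and 87.5 TPM in ZebDKO libraries (log2 fold changes of -0.36 and -0.38), without passing the test between the knockouts (log2 fold change 0.02, SE 0.04, adjusted p = 0.607).

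In Runx1KO cells more members fell than rose against control, and the changes were small. Of 94 tested, 17 rose (18.1%) and 45 fell (47.9%) at an adjusted p under 0.05, where 30.4% of all 13067 genes tested rose and 40.1% fell. Past 2-fold there was 1 member, Cox6a2, where 7.91% of all genes rose and 5.1% fell that far. The members' median log2 fold change was -0.09, and that of all genes -0.06. Scaling the libraries by the median ratio of genes gave 20 that rose and 32 that fell. The same 17 members rose and the same 31 fell under all 5 scalings, and no member was called in both directions.

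The counts by complex in Runx1KO cells were as follows, beside 30.4% of all genes that rose and 40.1% that fell. In complex I, 6 rose and 26 fell of 39 tested, with a median log2 fold change of -0.19, where Ndufa4, which rose, is counted by its name. In complex V, 8 rose and 4 fell of 16 tested, with a median of 0.06. Complex IV had 7 that fell and 0 that rose of 14 tested by limma, also at an unadjusted p under 0.05 (8 lower and 0 higher). In complex III, 1 rose and 1 fell of 8 tested. Of the complex I assembly factors 2 rose and 3 fell of 8, and of those for complex II 2 fell and 0 rose of 4 (limma, also 0 higher and 2 lower unadjusted). In complex II itself 2 fell and 0 rose of 4 (0 higher and 2 lower unadjusted). Atp5s, which shares the name but is not a subunit of the enzyme, did not pass the test (log2 fold change 0.17, SE 0.09, adjusted p = 0.159).

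**Figure D2:**
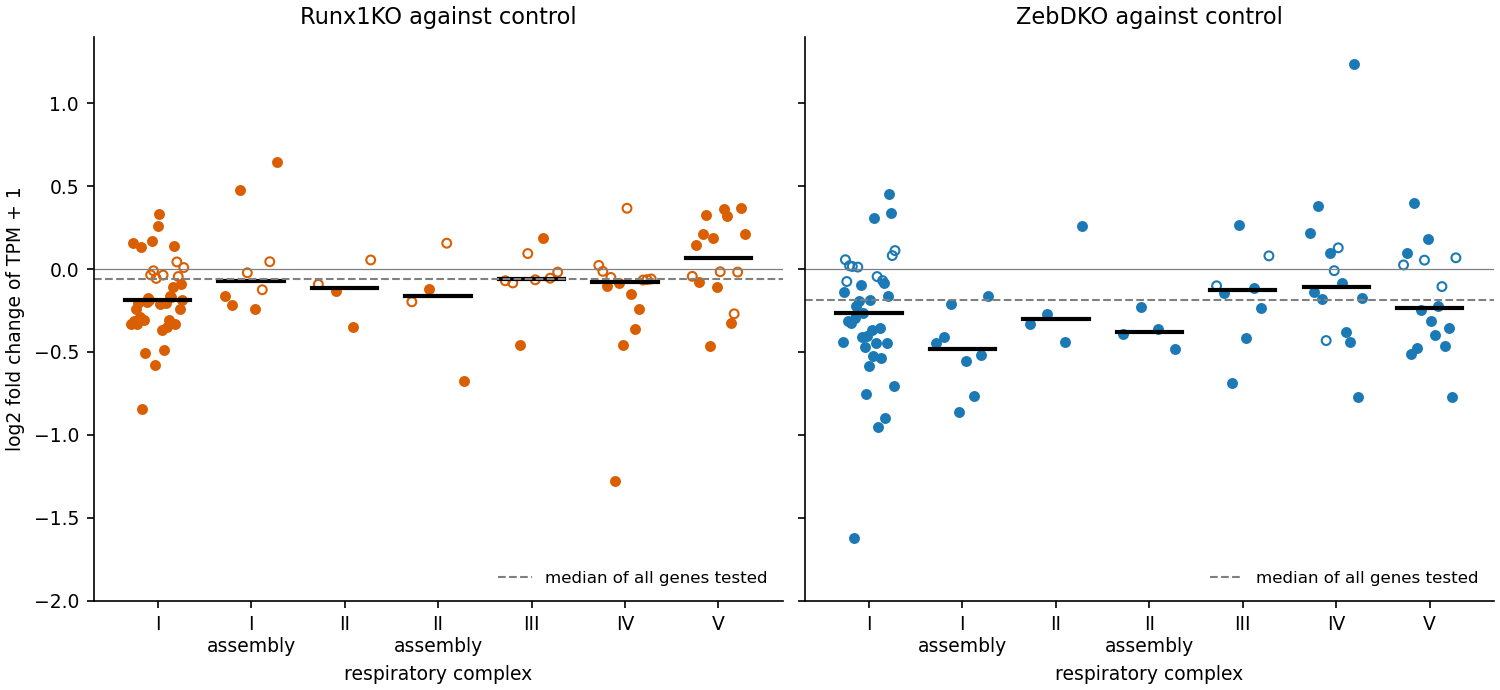
Log2 fold change of each tested member against control (y axis, on log2 of TPM + 1) by complex (x axis) in Runx1KO (left) and ZebDKO (right) cells; filled points passed the test at an adjusted p under 0.05 and open points did not. Black bars give the median of a complex and the dashed line the median of all genes tested, -0.06 in Runx1KO and -0.18 in ZebDKO cells.

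Of 6 core subunits of complex I that were followed, which take part in moving electrons from NADH, 5 fell and 0 rose in Runx1KO cells (limma, also 5 lower and 0 higher at an unadjusted p under 0.05). Of all genes 40.1% fell and 30.4% rose. With median-ratio scaling 2 of the 6 fell and 0 rose, where 34.1% and 34.8% of all genes did. Ndufs8, a subunit with a pair of iron-sulfur clusters, had 55, 52.5 and 55.7 TPM in control and 45.5, 45.8 and 46.1 in Runx1KO libraries (log2 fold change -0.24, SE 0.03, adjusted p = 0.000468). Ndufv2, an iron-sulfur subunit of the NADH-oxidizing part, had 68.9, 71.2 and 74.2 against 64.1, 60.5 and 63 TPM (log2 fold change -0.19, SE 0.04, adjusted p = 0.00372). For both, all Runx1KO libraries lay below all control libraries. Ndufs1 (-0.16), Ndufs3 (-0.11) and Ndufv1 (-0.09), which holds the flavin, were called as well, but none of these 3 passed the test with median-ratio scaling (adjusted p of 0.106, 0.176 and 0.431 by limma), and each call was lost without any of 1 (Ndufs1), 2 (Ndufs3) or 4 (Ndufv1) of the 6 libraries. Ndufs7 did not pass (log2 fold change -0.05, SE 0.05, adjusted p = 0.412).

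Accessory subunits of complex I surround this core. Of the 32 genes counted as such by name alone, 20 fell while 6 rose, where 40.1% and 30.4% of all genes did. With median-ratio scaling 18 fell and 7 rose, where 34.1% and 34.8% of all genes did. The 32 include Ndufa4, now counted as a subunit of complex IV, and Ndufb4c, which both rose, and Ndufa4l2, which fell. Ndufa6 had 190, 197 and 191 TPM in control and 137, 128 and 142 in Runx1KO libraries (log2 fold change -0.51, SE 0.04, adjusted p = 4.09e-05). Ndufb8 had 149.7, 154 and 159.7 against 112, 116 and 103 TPM (log2 fold change -0.49, SE 0.05, adjusted p = 0.000116), and Ndufb6 had 210.2, 214 and 202 against 168, 161 and 157 TPM (log2 fold change -0.37, SE 0.04, adjusted p = 8.09e-05). In these 3 genes the groups did not overlap. Ndufb2, at 21.8, 22.2 and 22.4 TPM in control and 15, 13.1 and 15.5 in Runx1KO libraries, fell further (log2 fold change -0.58, SE 0.06, adjusted p = 0.000161). Among those that rose were Ndufb4 and Ndufb4c, whose sequences are close copies, so that reads may have been divided between them in a way that cannot be seen here. Ndufb4 had 358, 373 and 368 TPM in control and 445, 433 and 438 in Runx1KO libraries (log2 fold change 0.26, SE 0.02, adjusted p = 7.75e-05), and Ndufb4c had 37.1, 41.7 and 40.9 against 48.9, 50.1 and 52.6 TPM (log2 fold change 0.33, SE 0.05, adjusted p = 0.00101).

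Complex I assembly factors help to build the enzyme and are not part of it. Ndufaf8 rose the most of all members, from 62, 60.6 and 61.9 TPM in control to 91.3, 104 and 95.2 TPM in Runx1KO libraries (log2 fold change 0.65, SE 0.05, adjusted p = 2.56e-05). Ndufaf3, from 16.4, 15.9 and 18 to 24.7, 22.3 and 24.2 TPM, rose as well (log2 fold change 0.48, SE 0.06, adjusted p = 0.00034). Each Runx1KO library exceeded each control library for both genes. Sdhaf4, which helps to mature Sdha, fell from 46.4, 44.8 and 45.7 to 25.4, 27.7 and 32 TPM (log2 fold change -0.67, SE 0.08, adjusted p = 0.000209). Of the subunits of complex II, Sdhc fell from 311, 297 and 294 to 237, 236 and 233 TPM (log2 fold change -0.35, SE 0.03, adjusted p = 3.44e-05). Sdhb also fell (log2 fold change -0.13, SE 0.03, adjusted p = 0.00413), a call that was lost with median-ratio scaling (adjusted p = 0.0689), while Sdha (log2 fold change -0.09, SE 0.04, adjusted p = 0.0766) and Sdhd (log2 fold change 0.05, SE 0.03, adjusted p = 0.158) did not pass. Sdhd was called higher with median-ratio scaling over all genes (0.12, adjusted p = 0.015) and over short transcripts (0.12, adjusted p = 0.00684).

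Uqcrb was the one complex III gene that fell in Runx1KO cells, from 628.4, 626 and 674 TPM in control to 478, 451 and 477 TPM (log2 fold change -0.45, SE 0.04, adjusted p = 4.36e-05). Uqcrfs1, the Rieske iron-sulfur protein of the same complex, rose from 204, 197 and 198 to 229.6, 224 and 230.2 TPM (log2 fold change 0.19, SE 0.03, adjusted p = 0.000527). Cox6c, a small subunit of complex IV, had 381, 384 and 396 TPM in control and 283, 288 and 271 in Runx1KO libraries (log2 fold change -0.46, SE 0.03, adjusted p = 1.33e-05). In all 3 genes the groups stood apart.

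ATP synthase had 8 genes that rose and 4 that fell, where 30.4% of all genes rose and 40.1% fell. With median-ratio scaling 8 rose and 2 fell, where 34.8% and 34.1% of all genes did. Atp5h, a subunit of the peripheral stalk, had 377, 433 and 432 TPM in control and 528, 537 and 528 in Runx1KO libraries (log2 fold change 0.36, SE 0.05, adjusted p = 0.000742). Atp5j, of the same stalk, had 67.3, 71.7 and 65.6 against 84.8, 85.3 and 85.7 TPM (log2 fold change 0.32, SE 0.04, adjusted p = 0.000229). Both were above every control library. Atp5f1, the stalk subunit b, went the other way, from 325, 334 and 324 to 241, 232 and 239 TPM (log2 fold change -0.46, SE 0.03, adjusted p = 5.08e-06). Atp5e, the epsilon subunit of the central stalk, had 305, 332 and 297 TPM in control and 394, 413 and 367 TPM in Runx1KO libraries (log2 fold change 0.33, SE 0.06, adjusted p = 0.00161). Atp5mpl, a small membrane subunit, had 78.8, 81.4 and 76.4 against 104, 101 and 101 TPM (log2 fold change 0.37, SE 0.03, adjusted p = 5.16e-05). Atp5b rose with a log2 fold change of 0.15. Genes of the stalk thus moved in both directions.

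In ZebDKO cells 12 of 94 members rose (12.8%) and 64 fell (68.1%), where 26.9% of all 12974 genes tested rose and 52.5% fell. Past 2-fold, Cox7b2 rose and Ndufa4l2 fell, where 7.49% and 7.28% of all genes did. The median of all genes was itself shifted, to a log2 fold change of -0.18, and that of the members was -0.24. Members minus all genes was thus -0.06 on the log2 scale, and it was -0.16 after quantile normalization and -0.12 with a GC trend removed from each library. With median-ratio scaling, which put the median of all genes at 0.00, 29 members rose and 40 fell. The same 6 members rose and the same 40 fell under all 5 scalings, and 10 members were called in both directions.

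Transcripts with less GC had lower fold changes in ZebDKO cells, among members and other genes alike. Among the 31 members lowest in GC content of the transcript (36.7% to 48.6%) the median log2 fold change was -0.44, and it was -0.41 over 4779 genes tested in that range. The next 31 had a median of -0.19 and all genes in their range -0.13. The 31 highest (53.9% to 60.8%) had a median of -0.10 and all genes 0.06. Spearman's rho between GC content and log2 fold change was 0.54 over 93 members and 0.38 over 12192 genes, as a description across genes that share the same libraries. In Runx1KO cells it was 0.10 for members and for all genes. With a GC trend removed from each library, a setting chosen after the data were seen, 10 members rose and 67 fell in ZebDKO cells. The study's methods give the same extraction kit for all genotypes. Whether the ZebDKO libraries were prepared and sequenced together with the others is not given in the sources used here, and its part in the GC trend was not tested.

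**Figure D3:**
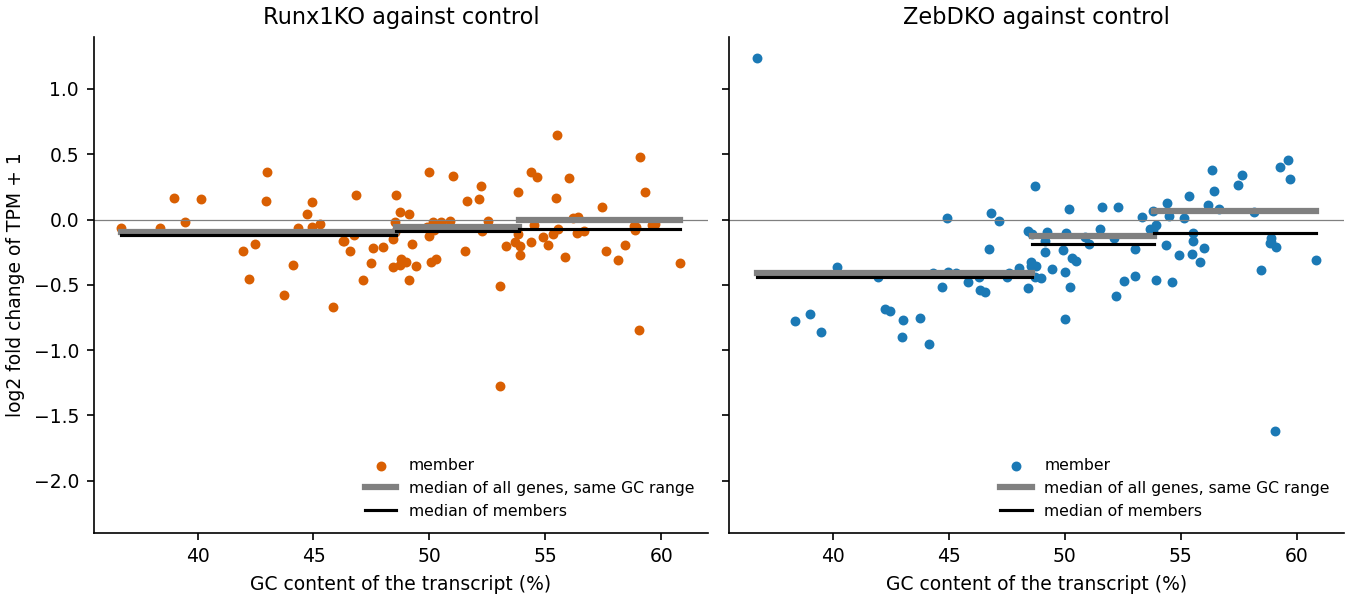
Log2 fold change against control (y axis) and GC content of the transcript in percent (x axis) for the members in Runx1KO (left) and ZebDKO (right) cells, 1 point a gene. Bars give medians of members (black) and of all genes (grey) in each of 3 ranges of GC content that hold 31 members each; in ZebDKO cells the members' medians run from -0.44 over -0.19 to -0.10.

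All 8 Ndufaf genes, the complex I assembly factors among the members, fell in ZebDKO cells, beside the 52.5% of all genes that fell, with a median log2 fold change of -0.48 (0 rose by limma, also at an unadjusted p under 0.05), and all 4 Sdhaf genes for complex II fell, with a median of -0.38 (0 rose, also unadjusted). Factors outside the members also rose, among them Sco2, Surf1 and Cox14 of complex IV (0.55, 0.36 and 0.30), named after their values were seen. Of the complex I factors outside the members, Tmem126b (-0.41) and Acad9 (-0.20) fell. Timmdc1 (0.10), Foxred1 (0.04), Ecsit (0.03) and Nubpl (-0.01) did not pass. With median-ratio scaling 6 of the 8 Ndufaf and 2 of the 4 Sdhaf genes fell. Ndufaf8 then turned to a value of 0.04, and the calls of Ndufaf3 (-0.02, adjusted p = 0.798) and Sdhaf2 (-0.03, adjusted p = 0.587) were lost. That of Ndufaf3 was also lost without any of 3 of the 6 libraries (adjusted p of 0.059 to 0.0649 by limma). Ndufaf4 had 36.3, 38.2 and 36.9 TPM in control and 18.9, 20.6 and 20.6 in ZebDKO libraries (log2 fold change -0.86, SE 0.05, adjusted p = 3.33e-06). Ndufaf6 had 30.5, 31.1 and 31.2 against 20, 16.5 and 17.1 TPM (log2 fold change -0.76, SE 0.07, adjusted p = 3.91e-05). Both genes were clearly apart between the groups. Sdhaf4 had 31.2, 36.8 and 29.7 TPM in ZebDKO libraries, also below control (log2 fold change -0.48, SE 0.08, adjusted p = 0.000687). Sdhaf3 fell (log2 fold change -0.36, SE 0.09, adjusted p = 0.00544), which was lost with median-ratio scaling (adjusted p = 0.0967) and turned to 0.04 with the GC trend removed.

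Subunits of complex I showed changes in both directions in ZebDKO cells, where 3 rose (7.69%) and 27 fell (69.2%) of 39 tested, beside 26.9% and 52.5% of all genes. With median-ratio scaling 14 rose and 17 fell, beside 38.5% and 37.5% of all genes. Ndufc1 had 204, 224 and 211 TPM in control and 121, 102 and 107 in ZebDKO libraries (log2 fold change -0.95, SE 0.07, adjusted p = 9.48e-06). Ndufs4, an accessory subunit best known from inherited deficiency of the complex, had 106, 112 and 105 against 59.4, 55.4 and 57 TPM (log2 fold change -0.90, SE 0.04, adjusted p = 1.21e-06). No control value came near the ZebDKO values of either gene. Ndufb2 fell from 21.8, 22.2 and 22.4 to 13.6, 12.7 and 11.9 TPM (log2 fold change -0.75, SE 0.06, adjusted p = 1.21e-05). The core was split. Ndufv2 (log2 fold change -0.70, SE 0.04, adjusted p = 3.32e-06) and Ndufs1 (log2 fold change -0.54, SE 0.06, adjusted p = 7.76e-05) fell, while Ndufs7, which holds the last iron-sulfur cluster before ubiquinone, rose from 75.9, 80.3 and 83.9 to 113, 101 and 117 TPM (log2 fold change 0.45, SE 0.06, adjusted p = 0.000322) and Ndufs8 rose from 55, 52.5 and 55.7 to 71.7, 68.4 and 67.3 TPM (log2 fold change 0.34, SE 0.04, adjusted p = 0.000145). Ndufs3 was called lower (-0.08) but higher with median-ratio scaling (0.12). Ndufv1 (0.08) did not pass the test, and was called in opposite directions under other scalings (0.28 with median-ratio scaling, -0.13 with the GC trend removed).

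In complex II, Sdhc fell from 311, 297 and 294 to 231, 218 and 215 TPM in ZebDKO libraries (log2 fold change -0.44, SE 0.04, adjusted p = 2.77e-05), and Sdha, the flavin subunit that oxidizes succinate, from 157, 162 and 168 to 129.7, 132 and 125 TPM (log2 fold change -0.33, SE 0.04, adjusted p = 0.000112). Sdhd, the other membrane anchor, rose from 149, 155 and 151 to 184, 177 and 183 TPM (log2 fold change 0.26, SE 0.03, adjusted p = 0.000139). The anchors thus moved apart, and the ZebDKO and control libraries overlapped in neither. Sdhb fell (log2 fold change -0.27, SE 0.04, adjusted p = 0.000292), without passing under median-ratio scaling (adjusted p = 0.102).

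Uqcrb of complex III fell from 628.4, 626 and 674 to 399.9, 391 and 406 TPM in ZebDKO libraries (log2 fold change -0.69, SE 0.04, adjusted p = 2.33e-06). Cox7c of complex IV fell from 661, 692 and 638 to 389.5, 381 and 392 TPM (log2 fold change -0.77, SE 0.03, adjusted p = 1.22e-06). Cox5b, a zinc-binding subunit of the same complex, rose from 426, 411 and 387 to 546, 506 and 539 TPM (log2 fold change 0.38, SE 0.04, adjusted p = 0.000139). These 3 kept their direction under all 5 scalings. Cox4i1, a large subunit at the membrane surface, rose with a log2 fold change of 0.22, a call that did not hold under all 5 scalings. Cox8a (-0.18), Cox6a1 (-0.18) and Cox7a2 (-0.08) were called lower but had values of 0.03, 0.02 and 0.12 with median-ratio scaling. Cox6c did not pass (log2 fold change -0.01, SE 0.05, adjusted p = 0.849), and with median-ratio scaling it was called higher (0.19).

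In complex V, Atp5mpl fell from 78.8, 81.4 and 76.4 to 52.4, 41.8 and 43.7 TPM in ZebDKO libraries (log2 fold change -0.77, SE 0.08, adjusted p = 7.47e-05). Atp5e fell from 305, 332 and 297 to 227, 215 and 227 TPM (log2 fold change -0.48, SE 0.05, adjusted p = 5.71e-05), and Atp5h from 377, 433 and 432 to 315, 309 and 314 TPM (log2 fold change -0.40, SE 0.05, adjusted p = 0.000293). All 3 rose in Runx1KO cells. Atp5b rose slightly in ZebDKO cells (log2 fold change 0.10, SE 0.03, adjusted p = 0.0121). Atp5s fell from 2.5, 2.6 and 2 to 0.9, 1.1 and 1.1 TPM (log2 fold change -0.72, SE 0.10, adjusted p = 0.000391), at a level close to the filter.

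The knockouts were then compared with each other without the control libraries, a test of whether they differ. Of 94 members, 49 were higher in Runx1KO and 25 higher in ZebDKO cells, where 50.2% and 29.8% of all 13071 genes were. The median log2 fold change of Runx1KO over ZebDKO was 0.13 for members and 0.15 for all genes, and with median-ratio scaling it was -0.04 for members, of which 30 were then higher in Runx1KO and 38 in ZebDKO cells. Between the 5 scalings, 6 members were called in both directions. The same 28 members were higher in Runx1KO and the same 16 in ZebDKO cells under all 5 scalings. Past 2-fold were Atp5mpl (log2 fold change 1.14, SE 0.08, adjusted p = 8.18e-06), Ndufs4 (log2 fold change 1.04, SE 0.04, adjusted p = 6.49e-07) and Cox7b2, where 9.2% and 6.59% of all genes were higher in Runx1KO and in ZebDKO cells by that much. All 8 Ndufaf genes were higher in Runx1KO cells (0 lower by limma, also unadjusted), with a median of 0.60, and 5 of them were so under all 5 scalings. The largest of these was Ndufaf4 (log2 fold change 0.84, SE 0.04, adjusted p = 2.22e-06), which did not pass in Runx1KO cells against control (log2 fold change -0.02, SE 0.03, adjusted p = 0.569). Complex I factors outside the members did not all share this direction. Nubpl (0.60), Timmdc1 (0.42), Acad9 (0.18) and Foxred1 (0.17) were higher in Runx1KO cells, Tmem126b (0.10) did not pass and Ecsit (-0.33) was lower. Cox7c was higher in Runx1KO cells as well (log2 fold change 0.71, SE 0.03, adjusted p = 7.62e-07).

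Opposite calls against control were made for 16 of the 94 members (17%), and for 16.2% of the 12697 genes tested in both comparisons, so the members' share was close to that of all genes. Of these 16, 12 rose in Runx1KO and fell in ZebDKO cells (Atp5e, Atp5h, Atp5j, Atp5mpl, Ndufa10, Ndufaf3, Ndufaf8, Ndufb10, Ndufb4, Ndufb4c, Ndufs4 and Uqcrfs1) and 4 did the reverse (Atp5g2, Cox5b, Cox6b1 and Ndufs8). Both comparisons used the same control libraries. Since the 16 were chosen by their calls in the same knockout libraries, a difference between the knockouts follows from the choice, and its values below are a description with no support from a test. The opposite calls against control depended on the scaling. With median-ratio scaling 6 of the 16 remained, and with the GC trend removed 13 did.

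**Figure D4:**
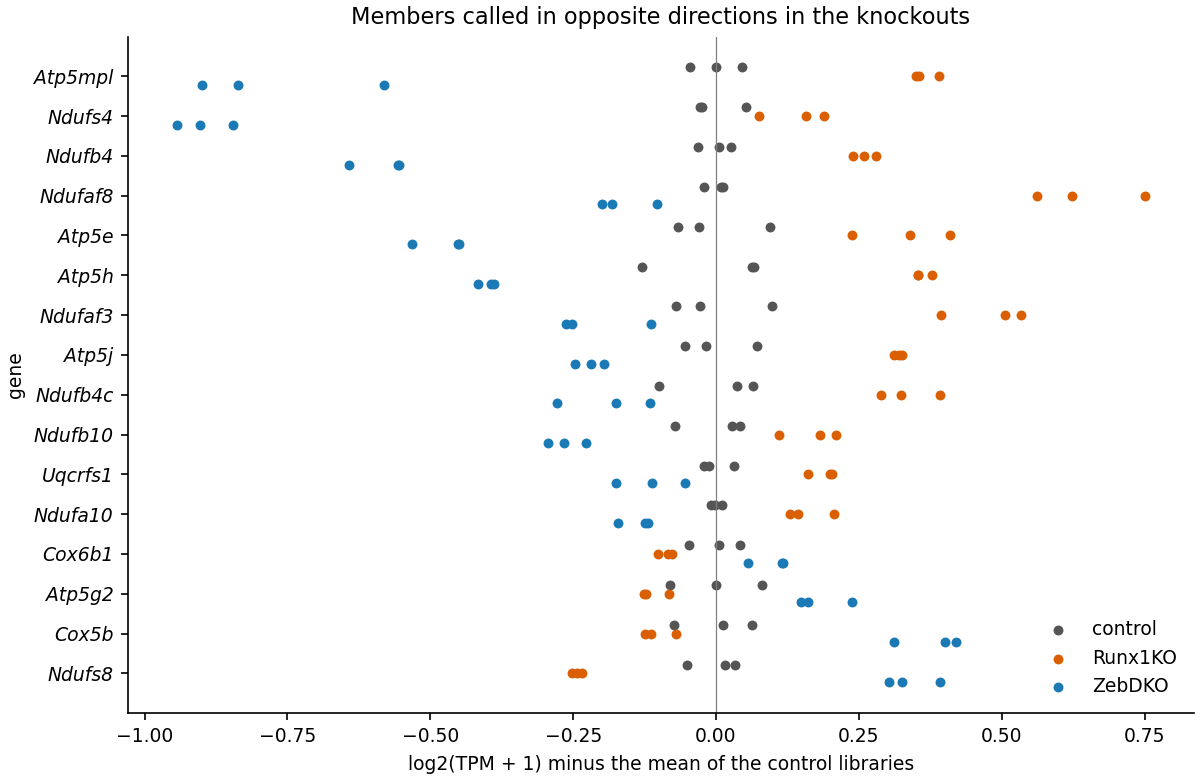
The 16 members called in opposite directions against control, with log2(TPM + 1) of each library minus the mean of the 3 control libraries (x axis), 3 points a genotype and gene (y axis). By the choice of the genes the knockouts lie on opposite sides of control on average, and 12 genes have Runx1KO on the right.

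Ndufb4 had 358, 373 and 368 TPM in control, 445, 433 and 438 in Runx1KO and 249, 234 and 249 in ZebDKO libraries (log2 fold change 0.84, SE 0.03, adjusted p = 4.3e-07 between the knockouts). The control libraries lay between the knockouts. Ndufb10 had 225, 227 and 209.6 TPM in control, 255, 238 and 250 in Runx1KO and 183, 188 and 179.5 in ZebDKO libraries (log2 fold change 0.43, SE 0.03, adjusted p = 1.64e-05). Ndufa10 had 232, 230 and 229, 266, 252 and 254 and 204, 212 and 211 TPM in the same order (log2 fold change 0.30, SE 0.03, adjusted p = 6.33e-05), and its ZebDKO value against control turned to 0.06 with median-ratio scaling. Uqcrfs1 (-0.11) and Ndufb4c (-0.19) likewise turned to 0.09 and 0.01. Ndufaf3 had 15.4, 13.9 and 13.8 TPM in ZebDKO libraries (log2 fold change 0.69, SE 0.06, adjusted p = 2.75e-05 between the knockouts), and Atp5j had 59.4, 57.3 and 58.4 TPM (log2 fold change 0.54, SE 0.03, adjusted p = 2.07e-06).

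Of the 4 genes with the reverse order, Ndufs8 had the largest difference. Its ZebDKO libraries were above and its Runx1KO libraries below every control library (log2 fold change -0.58, SE 0.03, adjusted p = 3.5e-06 between the knockouts). Cox5b differed in the same direction (log2 fold change -0.48, SE 0.03, adjusted p = 9.37e-06). Atp5g2 had 583, 652 and 617 TPM in control, 565, 567 and 583 in Runx1KO and 727, 684 and 689.5 in ZebDKO libraries (log2 fold change -0.29, SE 0.03, adjusted p = 6.41e-05). Cox6b1, at the contact of the complex IV dimer, had 398, 413 and 424, 388, 389.9 and 383 and 445, 446 and 428 TPM (log2 fold change -0.18, SE 0.03, adjusted p = 0.000322). The Runx1KO calls of Cox5b, Cox6b1 and Atp5g2 against control were near the threshold (log2 fold change -0.10, SE 0.04, adjusted p = 0.0458; log2 fold change -0.09, SE 0.03, adjusted p = 0.0282; log2 fold change -0.11, SE 0.04, adjusted p = 0.0489). Each was lost when any 1 of 5 of the 6 libraries was left out, with adjusted p of 0.0539 to 0.127 for Cox5b, 0.0575 to 0.0856 for Cox6b1 and 0.0654 to 0.122 for Atp5g2 by limma, and for Cox5b the Runx1KO and control libraries overlapped.

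RefSeq promoters (build GRCm38.p6) were at hand for 14 of these 16 members. The 150 bases before the start are shown for the 7 that held a searched motif there, so that its place can be seen. Atp5j had a second promoter without a match there, which is not shown. Capitals mark matches, on either strand, to CCGGAAG (the core bound by ETS factors such as GABP), GCGCATGC (NRF1), AAGATGGC (YY1) or TGTGGT (Runx), with the last base next to the start.
Atp5e, chr2:174464102-174464251, minus strand: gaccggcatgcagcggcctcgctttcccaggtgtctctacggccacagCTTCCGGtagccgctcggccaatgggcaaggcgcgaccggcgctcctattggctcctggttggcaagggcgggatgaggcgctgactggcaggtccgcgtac
Atp5h, chr11:115419920-115420069, minus strand: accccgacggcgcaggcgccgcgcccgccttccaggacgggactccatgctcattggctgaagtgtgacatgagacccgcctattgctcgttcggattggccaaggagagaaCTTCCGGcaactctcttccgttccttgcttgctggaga
Atp5j, chr16:84834977-84835126, minus strand: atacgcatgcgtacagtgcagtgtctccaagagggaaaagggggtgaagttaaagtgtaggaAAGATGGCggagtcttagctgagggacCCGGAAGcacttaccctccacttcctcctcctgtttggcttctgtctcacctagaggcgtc
Ndufaf8, chr11:120098784-120098933, plus strand: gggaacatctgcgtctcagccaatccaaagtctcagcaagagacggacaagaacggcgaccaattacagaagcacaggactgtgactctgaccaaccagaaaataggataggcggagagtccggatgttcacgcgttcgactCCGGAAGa
Cox6b1, chr7:30626115-30626264, minus strand: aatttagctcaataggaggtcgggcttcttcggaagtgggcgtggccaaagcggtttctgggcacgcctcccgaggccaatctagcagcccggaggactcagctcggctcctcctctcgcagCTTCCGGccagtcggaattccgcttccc
Atp5g2, chr15:102671048-102671197, minus strand: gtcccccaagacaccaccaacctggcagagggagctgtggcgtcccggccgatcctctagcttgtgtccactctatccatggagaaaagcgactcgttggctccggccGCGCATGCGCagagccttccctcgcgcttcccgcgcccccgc
Ndufb10, chr17:24724424-24724573, minus strand: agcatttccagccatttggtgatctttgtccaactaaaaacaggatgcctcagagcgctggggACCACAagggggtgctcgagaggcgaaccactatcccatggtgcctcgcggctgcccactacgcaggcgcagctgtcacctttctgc
Read 5′ to 3′, Atp5e, Atp5h, Atp5j, Ndufaf8 and Cox6b1 held the ETS core, Atp5j also the YY1 letters, Atp5g2 a pair of overlapping NRF1 matches and Ndufb10 the Runx letters.

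Over all tested members with a promoter in that set (78 genes, 83 promoters of 250 bases before to 50 after the start), the ETS core was in 25.3%, against 17.6% of 12652 promoters of tested genes and 8.86% of all 32851 promoters. NRF1 letters were in 14.5% of member promoters, against 5.12% and 2.71%. YY1 letters were in 13.3%, against 4.42% and 2.75%. At least 1 of these 3 was in 37 of the 83 (44.6%), against 24.8% and 13.3%. The Runx letters were in 8 member promoters (9.64%), against 12.4% and 16.8%. NRF1, GABP and YY1 are textbook regulators of respiratory genes, and a match is a description of letters only. Overlapping matches of 1 motif were counted once a promoter.

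A Runx1 ChIP-seq peak of control cells lay within 500 bases of an annotated start in 10 of 93 members with a gene model (10.8%, Wilson 95% interval 5.95% to 18.7%), against 18.4% of 12264 genes. Of the members named elsewhere here these were Ndufa4, Uqcrq and Sdhaf2. Ndufa4 rose in Runx1KO cells (log2 fold change 0.13, SE 0.04, adjusted p = 0.019), a call lost without any of 3 libraries, Sdhaf2 fell (log2 fold change -0.12, SE 0.04, adjusted p = 0.0351), lost without any of 5, and Uqcrq did not pass (log2 fold change -0.02, SE 0.03, adjusted p = 0.611). The rest were Ndufs5 (-0.33), Ndufa11 (-0.31), Ndufaf1 (-0.16), Uqcr11 (-0.08), Ndufb7 (-0.04), Ndufab1 (-0.04) and Cox5a (-0.01). Of these, Ndufs5 and Ndufa11 were called lower under all 5 scalings. Ndufaf1 was called lower (adjusted p = 0.0125 by limma), but not under all 5. A Runx2 peak lay at 34 of 93 members in control cells (36.6%, interval 27.5% to 46.7%) and also at 34 in Runx1KO cells, against 45.6% and 48.4% of all genes. The lists were called by the authors on combined replicates, so no test across replicates was possible, and the intervals cover counting error only.

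An ATAC-seq region open in both cell types lay at 83 of 93 members (89.2%, interval 81.3% to 94.1%), against 81.5% of all genes. Regions that closed in Runx1KO cells lay at 0 of 93 members, which allows a share of up to 3.23% by a floor of 3 counts and 3.97% by the Wilson interval, and at 2.82% of all genes. Regions open only in Runx1KO cells also lay at 0 of 93, and at 4.64% of all genes. Both counts of 0 held with windows of 100 and 1000 bases. Tested members without a listed region included Atp5g2, Ndufs7, Ndufs8, Cox7b2, Cox6a2 and Ndufa4l2. Chromatin of ZebDKO cells was not analysed here.

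**Figure D5:**
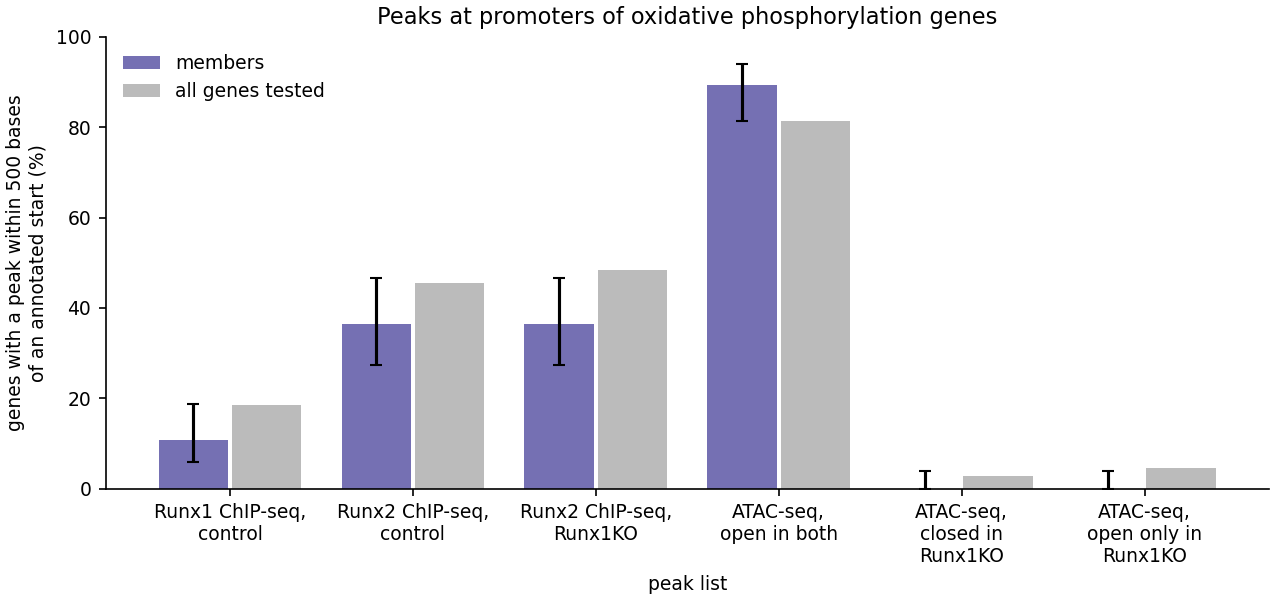
Share of genes (y axis, percent) with a peak of each list (x axis) within 500 bases of an annotated start, for the 93 tested members with a gene model (purple, with 95% Wilson intervals) and for all 12264 tested genes with one (grey). Members were at 0 for both lists of changed ATAC-seq regions.

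The other genes of the pathway were taken from lists. Of 40 assembly factors and electron carriers tested outside the rule, 11 rose (27.5%) and 19 fell (47.5%) in Runx1KO cells, where 30.4% and 40.1% of all genes did, and 7 rose (17.5%) and 20 fell (50%) in ZebDKO cells, where 26.9% and 52.5% did. These shares were near those of all genes. Cycs, which encodes cytochrome c, had 99.1, 105 and 104 TPM in control, 95.8, 92.1 and 93.4 in Runx1KO and 78.4, 78.6 and 77.4 in ZebDKO libraries, and fell in both (log2 fold changes of -0.13 and -0.39). Cyc1, the cytochrome c1 of complex III, rose in both (0.11 and 0.47). Past 2-fold in Runx1KO cells, Coa3, a factor for the start of complex IV assembly, rose from 111, 117 and 116 to 272, 262 and 253 TPM (log2 fold change 1.18, SE 0.04, adjusted p = 2.14e-07), and Cox19, linked to its copper supply, fell from 279.8, 287 and 273 to 137, 127 and 136 TPM (log2 fold change -1.07, SE 0.04, adjusted p = 3.88e-07). Cox20, another complex IV factor, fell past 2-fold in ZebDKO cells, from 204, 183 and 180.1 to 68.5, 71.6 and 75 TPM (log2 fold change -1.39, SE 0.06, adjusted p = 7.86e-07).

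Of the factors of mitochondrial biogenesis, 9 of 21 rose (42.9%) and 6 fell (28.6%) in Runx1KO cells, where 30.4% and 40.1% of all genes did. In ZebDKO cells 6 of 20 rose (30%) and 10 fell (50%), near the 26.9% and 52.5% of all genes. Gabpa, the DNA-binding ETS subunit of GABP, had 75.6, 72.9 and 76 TPM in control, 110.4, 109 and 113 in Runx1KO and 65.5, 72.1 and 67.2 in ZebDKO libraries (log2 fold changes of 0.56 and -0.13). Yy1 rose in Runx1KO cells (log2 fold change 0.63, SE 0.03, adjusted p = 3.57e-06). Nrf1 did not pass there (log2 fold change 0.03, SE 0.06, adjusted p = 0.661) and fell in ZebDKO cells (log2 fold change -0.27, SE 0.06, adjusted p = 0.00451). Ppargc1a, a coactivator of respiratory genes, fell in Runx1KO and rose in ZebDKO cells at low levels (-0.63 and 0.63). Ppargc1b, of the same list, went from 0, 0 and 0 TPM in control to 1.7, 1.6 and 1.4 TPM in Runx1KO libraries (log2 fold change 1.36). Gabpb1 rose in both knockouts (0.30 and 0.52) and Gabpb2 fell in both (-0.55 and -0.35). Myc rose in ZebDKO cells from 40.6, 38.6 and 40.4 to 184, 179.7 and 188 TPM (log2 fold change 2.18, SE 0.04, adjusted p = 1.7e-08). Mterf1a and Slirp fell past 2-fold there (log2 fold changes of -1.30 and -1.04).

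Of 20 glycolysis genes tested, 12 rose (60%) and 1 fell (5%) in ZebDKO cells, where 26.9% and 52.5% of all genes did, and 8 rose (40%) and 5 fell (25%) in Runx1KO cells, where 30.4% and 40.1% did. Slc2a1, the main glucose transporter of many cells, rose in Runx1KO cells (log2 fold change 2.08, SE 0.03, adjusted p = 1.31e-08) and in ZebDKO cells (log2 fold change 0.91, SE 0.03, adjusted p = 2.22e-07), and Ldhb, a lactate dehydrogenase subunit, fell in Runx1KO cells from 43.7, 47 and 45 to 2, 1.9 and 2.3 TPM (log2 fold change -3.92, SE 0.06, adjusted p = 1.58e-08). Of 18 genes of the tricarboxylic acid cycle and pyruvate dehydrogenase, 6 rose and 5 fell in Runx1KO and 3 rose and 7 fell in ZebDKO cells. Of 10 carriers and uncouplers, 6 rose and 2 fell in Runx1KO and 4 rose and 5 fell in ZebDKO cells, with Ucp2, a carrier named for its likeness to the uncoupling protein of brown fat, at 4.3, 5 and 4.4 TPM in control, 230.1, 239 and 229.8 in Runx1KO and 94.2, 97.2 and 101 in ZebDKO libraries. Of 78 nuclear genes for the mitochondrial ribosome, 22 rose and 29 fell in Runx1KO and 14 rose and 44 fell in ZebDKO cells, with medians of -0.01 and -0.18. Of 85 genes of the cytoplasmic ribosome, 10 rose and 47 fell in Runx1KO and 11 rose and 62 fell in ZebDKO cells, with medians of -0.10 and -0.23, near those of the members. Median-ratio scaling, a recount added after the data were seen, moved most of these counts. In ZebDKO cells 38.5% of all genes then rose and 37.5% fell, and 19 rose and 1 fell of the glycolysis genes, 10 and 5 of the tricarboxylic acid cycle, 5 and 2 of the carriers, 29 and 24 for the mitochondrial ribosome, 26 and 36 for the cytoplasmic ribosome, 9 and 6 of the biogenesis factors and 17 and 13 of the assembly factors and electron carriers. In Runx1KO cells, where 34.8% and 34.1% of all genes then rose and fell, the last list had 14 that rose and 11 that fell. With a GC trend removed from each library instead, 13 of the 20 glycolysis genes rose and 5 fell in ZebDKO cells, where 26.7% and 50% of all genes did.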

How the data were processed

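RNA-seq of 3 control, 3 Runx1KO and 3 ZebDKO libraries was used, with peak lists of Runx1 and Runx2 ChIP-seq and of ATAC-seq. Per the paper's methods, reads were aligned to mm9, cleared of duplicates and counted by the authors (featureCounts 1.6.2 and DESeq2 1.26.0 per the submitters' processing notes), and TPM were deposited. Depth cannot be read from TPM, so precision rests on the spread of 3 libraries, which may be technical. The ChIP-seq lists hold the authors' deposited fold over background, used here to rank peaks. Columns of the authors' own comparison in the ATAC-seq lists were not used.

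For each pair of genotypes, limma 3.58.1 (R 4.3.3, with a trend) was applied to log2(TPM + 1) of those genes that reached 1 TPM in 3 or more of the 6 libraries, with Benjamini-Hochberg adjustment across all of them. A fold change on this scale understates the change of low genes. A gene was called, and is said to have risen or fallen, at an adjusted p under 0.05. The fit was also run on simulated data, with an outcome that is not given here. Of 98 members, 97 had a gene model in the mm9 annotation, and bedtools 2.31.1 counted an overlap of 1 base. Ndufb8 had none and kept its value where a GC trend was removed. Matching of promoters by symbol or synonym gave 80 members.

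The members and lists were chosen with earlier results of these data known. Named members were the 12 with the largest change in each comparison among called ones whose groups did not overlap, the highest and lowest of each complex, isoform families, core subunits of complex I (except 1 that is not reported here), complex II, and those called in opposite directions. Alternatives were other pseudocounts (0.1, 0.5), filters, scalings, the replicate number as a block, 1 fit over all 9 libraries, no trend, a fold limit of 1.3, subunits alone, each library left out and the second TPM table. The removal of GC or length trends was added after the data were seen.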

Additional observations from a re-analysis of the deposited data

Results flagged for a closer look

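Members were set apart where the difference between the knockouts passed its own test and either their calls against control had opposite signs or the difference exceeded 2-fold. The values are log2 fold changes of Runx1KO over ZebDKO. Those with opposite calls were chosen by their calls in the same knockout libraries, so for them the difference follows from the choice. The values were positive for Atp5mpl (1.14), Ndufs4 (1.04), Ndufb4 (0.84), Ndufaf8 (0.81), Atp5e (0.81), Atp5h (0.76), Ndufaf3 (0.69), Atp5j (0.54), Ndufb4c (0.52), Ndufb10 (0.43), Uqcrfs1 (0.30) and Ndufa10 (0.30). They were negative for Cox7b2 (-1.30), Ndufs8 (-0.58), Cox5b (-0.48), Atp5g2 (-0.29) and Cox6b1 (-0.18). The median over all genes was 0.15.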

How the results depend on the processing

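Limits first. With 3 libraries a genotype, small changes are read against few degrees of freedom, and TPM keep no depth. Many results depended on scaling, for which the right choice was not tested. The share of higher among called members went from 27.4% to 38.5% with median-ratio scaling in Runx1KO, from 15.8% to 42% in ZebDKO and from 66.2% to 44.1% for Runx1KO over ZebDKO cells. Median-ratio scaling gave 29 higher and 40 lower members in ZebDKO against control, 30 and 38 for Runx1KO over ZebDKO, and a member median of -0.0374 in the latter, and scaling on short transcripts gave 23 higher in ZebDKO cells. A fold limit of 1.3 left 2 and 9 members in Runx1KO, 3 and 34 in ZebDKO and 21 and 5 between the knockouts. Log2 ratios of summed TPM with median-ratio scaling were -0.068 (complex I), -0.11 (complex II), -0.058 (complex III), -0.053 (complex IV), 0.10 (complex V), -0.012 (all members) for Runx1KO and -0.00675 (complex I), -0.016 (complex II), -0.026 (complex III), 0.071 (complex IV), 0.14 (complex V), 0.051 (all members) for ZebDKO cells. Without the most abundant member they were -0.15 (complex I), -0.0503 (complex II), -0.000123 (complex III) for Runx1KO and -0.084 (complex II), -0.089 (complex III), -0.11 (complex V) for ZebDKO cells. Signs turned for ZebDKO over control with median-ratio scaling (Ndufaf8 0.037, Cox6c 0.19, Ndufa10 0.063, Ndufb4c 0.0075, Uqcrfs1 0.087, Cox8a 0.027, Cox6a1 0.0202, Cox7a2 0.12, Ndufs3 0.12), on short transcripts (Cox6c 0.13, Ndufa10 0.0046, Uqcrfs1 0.029, Cox7a2 0.059, Ndufs3 0.059) and with the GC trend removed (Cox6c 0.13, Sdhaf3 0.038, Cox7a2 0.0081, Ndufv1 -0.13). They turned for Runx1KO over ZebDKO with median-ratio scaling (Ndufb6 -0.0059, Ndufa4 -0.048, Sdhc -0.074, Sdhb -0.022, Sdhaf2 -0.054, Cox8a -0.049, Atp5b -0.12, Cox6a1 -0.033, Cox7a2l -0.14, Atp5g1 -0.029), with the GC trend removed (Uqcrb -0.043, Ndufa4 -0.063, Sdhaf2 -0.0064, Cox7b -0.088) and with quantile normalization (Sdhaf2 -0.0027). The cause was not tested. Promoter shares were 24.7% for Runx2 in both cell types with a window of 100 bases, and 5.38% (Runx1), 15.1% (Runx2, control) and 18.3% (Runx2, Runx1KO) with the stronger part of the peaks. Those of all genes were 36.7% (control) and 40.0% (Runx1KO) for Runx2 with that window. With the stronger peaks they were 10.9%, 28.3% and 29.2% in the same order.

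Leaving out 1 library gave 15 to 18 higher and 37 to 44 lower members in Runx1KO, 11 to 12 and 59 to 61 in ZebDKO, and 42 to 48 and 21 to 26 between the knockouts, and no named call turned. Named calls lost without at least 1 library, with the highest adjusted p by limma, were in Runx1KO cells Atp5g2 0.122, Cox5b 0.127, Cox6b1 0.0856, Ndufa4 0.0621, Ndufs1 0.0618, Ndufs3 0.0563, Ndufs4 0.0559, Ndufv1 0.116, Sdhaf2 0.0998, in ZebDKO cells Cox6b1 0.0973, Cox7a2 0.123, Ndufaf3 0.0649, Ndufb4c 0.077, Ndufs3 0.0977, Uqcrfs1 0.0842, and between the knockouts Atp5g1 0.0929, Ndufb6 0.0716, Sdhaf2 0.0852, Sdhc 0.0991, Uqcrq 0.0732. Replicate numbers did not pair the libraries (correlations of same-numbered deviations from -0.0495 to 0.0399). With the replicate block, 17 rose and 40 fell in Runx1KO, 11 and 61 in ZebDKO, and 47 and 24 differed between the knockouts. In the second TPM table, 10 of 90 members tested in both had a Runx1KO change of opposite sign. The log2 fold changes differed by a median of 0.032 and at most 0.25. Over all settings, 2736 single values kept direction and side of the threshold, 174 lost the call, 56 gained it, 58 moved without a call and 34 turned. Removal of GC or length trends was chosen after seeing the data.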
